A study of Mus musculus with 4 samples.

Results

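The cytosolic ribosomal protein genes were examined in single cells of the mouse distal jejunum after ischemia/reperfusion (I/R). Members were chosen by gene symbol: Rpl or Rps followed by a digit, and Rpsa, Rplp0, Rplp1 and Rplp2, without symbols that hold -ps or -rs or that start with Rps6k. This gave 86 of the 32286 features. They comprised 43 proteins of the large subunit, 30 of the small subunit, the 3 stalk proteins Rplp0, Rplp1 and Rplp2, the ubiquitin fusion gene Rps27a and 8 genes named as copies or paralogs of another member. The remaining gene, Rps19bp1, meets the rule by its symbol but encodes a regulator named for its binding to a ribosomal protein.

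The cytosolic ribosome translates nuclear mRNAs and is built from ribosomal RNA and a fixed set of proteins, most of them needed in equal amounts. Their mRNAs are known for a 5′ terminal oligopyrimidine (TOP) start, a C at the cap followed by pyrimidines, through which their translation answers to growth signals. In the small intestine, dividing crypt cells supply the enterocytes that differentiate as they move up the villus, and growing cells are known for abundant ribosomal protein mRNA.

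The series holds 2 control mice (Foxc1fl/fl;Foxc2fl/fl) and 2 EC-Foxc-DKO mice (Cdh5-CreERT2;Foxc1fl/fl;Foxc2fl/fl), each 1 library. All were adult males given tamoxifen, and the jejunum was taken 18.5 h after I/R. Because Cre was driven by the endothelial Cdh5 promoter, the deletion was directed to endothelial cells. No uninjured mice were analysed here.

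Of 22679 barcodes, 5615 passed the limit of 10% mitochondrial UMIs: 1446 and 348 in the controls and 2742 and 1079 in those of EC-Foxc-DKO genotype. Each mouse had 3918909 to 30487782 UMIs in kept cells, with a median of 4254.5 to 19871 per cell. In blood endothelial cells, Foxc1 had 1 and 5 UMIs in the controls and 1 and 0 in those of EC-Foxc-DKO genotype, and Foxc2 had 0 in all 4, so that the deletion could not be checked at this depth, whereas Cdh5, the endothelial cadherin, had 117 to 338 UMIs in each mouse. Between libraries, 51 barcodes were shared, and 24 kept cells had a barcode that was also in another library. Cells were clustered without the member genes and named from marker genes, and these rebuilt names need not match those that the study gave. The cluster named CD8 T cells also held Trdc and Klra5 among its leading genes, 1 cluster joined stromal cells, smooth muscle cells and pericytes, and 1 cluster of 125 cells stayed unnamed.

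The starts of a few members are given first, since several genes that parted from the rest are paralogs with a start of their own. In RefSeq (GRCm38.p6), 66 of the 86 members had an annotated start by symbol. Of these, 14 (21.2%) had, at an annotated start, a C followed by at least 4 bases that are each C or T, against 3.01% of all 27025 genes. Each line below runs from 10 bases before the annotated start to its base 20, on the gene's strand, and capitals mark the uninterrupted pyrimidines where this TOP-like start was found.
Rps27 (chr3:90213629-90213658, minus strand): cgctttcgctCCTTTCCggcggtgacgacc
Rps27rt (chr9:114982720-114982749, minus strand): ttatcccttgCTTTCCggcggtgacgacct
Rps27l (chr9:66946076-66946105, plus strand): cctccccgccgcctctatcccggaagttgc
Rpl36a (chrX:134585644-134585673, plus strand): cccaggcaccgcctataaacttccgttgcg
Rpl36al (chr12:69184048-69184077, minus strand): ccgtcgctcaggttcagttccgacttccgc
Rpl28 (chr7:4792955-4792984, plus strand): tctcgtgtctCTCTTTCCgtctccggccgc
Rps15a (chr7:118116128-118116157, minus strand): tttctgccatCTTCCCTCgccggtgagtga
Rpl12 (chr2:32961702-32961731, plus strand): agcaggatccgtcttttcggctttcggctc

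Rps27 and its copy Rps27rt share a run of 38 bases within the first 50 bases from the start. The libraries were read from the other end of transcripts, where this pair was not compared. Whether reads were split between the pair was thus not tested, and their values are uncertain. The lines for Rps27l, Rpl36a, Rpl36al and Rpl12 hold no such start at the annotated position, which says nothing on the start that these cells used. The annotated starts of Rpl28, Rps15a and Rpl12 lie 91, 41 and 153 bases from those of GENCODE. Those of Rpl36al and Rps27 lie 16 and 3 bases away.

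The share of UMIs on ribosomal protein genes differed widely between cell types. Of those ordered, lymphocytes and crypt cells lay at the top, and injury-state epithelial cells and middle enterocytes at the bottom. The 16 cell types with at least 10 cells in at least 3 mice were ordered by the mean over mice. Follicular B cells, the resting B cells of lymphoid follicles, held the highest share, with 28.7% and 31.7% in the controls and 35.3% and 33.4% in those of EC-Foxc-DKO genotype. CD4 T cells followed with a mean of 27.6% ± 5.01 (SD, n = 3), crypt cells with 24.5% ± 4.16 (SD, n = 4) and CD8 T cells with 20.8% ± 0.43 (SD, n = 4). Follicular B cells were higher than CD4 T cells in 3 of 3 mice, and crypt cells were higher than CD8 T cells in 4 of 4, but CD4 T cells exceeded crypt cells in only 2 of 3.

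Macrophages (15.8% ± 1.74, SD, n = 4) and blood endothelial cells (14.7% ± 0.46, SD, n = 4) came next and could not be told apart, macrophages being higher in 2 of 4 mice. From tuft cells (12.6% ± 6.44, SD, n = 3) through plasma cells, the joined stromal cluster and enteric glia to bottom enterocytes (10.7% ± 3.14, SD, n = 4), no cell type was higher than the next in every mouse. Goblet and Paneth cells, enteroendocrine cells and erythroid cells had means of 8.06% ± 5.21, 6.99% ± 2.47 and 5.80% ± 1.15 (SD, n = 3 each). The erythroid cluster was shallow, with a median depth of 878 to 2868 UMIs in its 3 mice. In EC-Foxc-DKO replicate 1, abundant enterocyte genes, named below, took 12.2% of the cluster's UMIs and erythroid genes 6.27%. In the controls the enterocyte genes took 7.74% and 5.31%, below the erythroid genes at 19.98% and 31.2%. The part of enterocyte RNA in the erythroid share was not tested. Injury-state epithelial cells (4.55% ± 0.40, SD, n = 3) and middle enterocytes (3.80% ± 0.32, SD, n = 3) had the lowest mean shares of the 16. Neutrophils, present in too few mice for the order, held 3.38% in control replicate 1 and 3.33% in EC-Foxc-DKO replicate 1. This order is of summed UMIs and need not hold for single cells. The median goblet and Paneth cell held 1.53% in control replicate 1 and 1.36% in EC-Foxc-DKO replicate 1. The median middle enterocyte held more there, 2.16% and 1.88%. In EC-Foxc-DKO replicate 2 the median goblet and Paneth cell held 10.8%. With a mitochondrial limit of 20% the mean was 1.62% in middle enterocytes, 2.61% in erythroid cells and 3.98% in injury-state epithelial cells, so that erythroid cells then lay below injury-state epithelial cells. No test was made between cell types, because the clusters came from the same cells. The 95% Wilson interval of a share was at most 0.740 percentage points wide and covers counting error only.

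**Figure D1:**
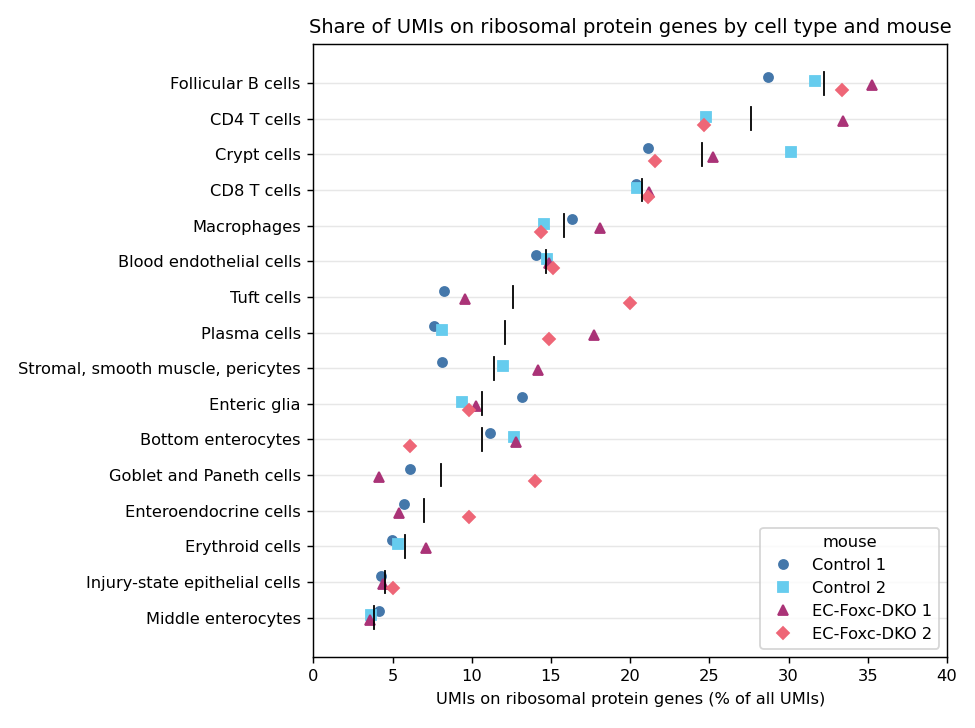
Share of UMIs on ribosomal protein genes (percent of all UMIs, horizontal axis) in each cell type with at least 10 cells in at least 3 mice. Each symbol is 1 mouse and the black line is the mean over mice. Follicular B cells lie at 28.7% to 35.3% and middle enterocytes at 3.57% to 4.17%.

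The place of plasma cells in the order depended on which genes were counted in the total. Plasma cells, which secrete antibody, had 7.60% and 8.10% in the controls, but with the 20 most abundant other genes left out of the total their mean rose from 12.1% to 28.4% and their place from 8 to 3. Follicular B cells and CD4 T cells kept places 1 and 2 in that setting, and injury-state epithelial cells and middle enterocytes kept places 15 and 16. Within plasma cells the single cells also differed. The median cell held 34.8% and 43.2% in the libraries with replicate number 1, where the median depth was 1532 and 1318 UMIs, but 9.02% and 17.0% in those with replicate number 2, where it was 19269 and 10834.

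Along the villus the ribosomal protein share fell at each step, in every mouse that had the cells. Crypt cells, which hold the stem and dividing cells, had 21.1% and 30.1% in the controls and 25.2% and 21.6% in those of EC-Foxc-DKO genotype. Bottom enterocytes had 11.1%, 12.7%, 12.8% and 6.09% in the same order. Middle enterocytes had 4.17%, 3.65% and 3.57% in the first 3 mice. EC-Foxc-DKO replicate 2 had only 9 middle enterocytes, at 1.60%. Top enterocytes had 0.724% in control replicate 1 (218 cells) and 0.958% in EC-Foxc-DKO replicate 1 (97 cells), and the other mice had 3 and 2 cells. Crypt cells thus exceeded bottom enterocytes 1.902- to 3.55-fold in 4 of 4 mice, middle enterocytes 5.07- to 8.26-fold in 3 of 3 and top enterocytes 26.3- and 29.2-fold in 2 of 2. With a mitochondrial limit of 20% these folds were 2.39 to 3.24 in 4 mice, 12.4 to 18.8 in 3 and 31.3 to 40.7 in 3.

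The fall was also seen in UMIs per cell. A crypt cell held 9255 to 18342 ribosomal protein UMIs on average over a mouse, a bottom enterocyte 1569 to 5288, a middle enterocyte 776 to 1235 in the 3 mice with 10 or more, and a top enterocyte 105 and 149 in the mice with 10 or more. Other values moved along the same axis, and their part in the fall was not tested. The abundant enterocyte genes Reg3b, Reg3g, Fabp1, Fabp2, Apoa1, Apoa4 and Sis together went from 0.274% to 3.37% of UMIs in crypt cells to 12.8% to 15.3% in middle enterocytes of 3 mice. The mitochondrial share went from 3.97% to 5.96% up to 7.91% to 8.07%. Median depth went from 29975 to 84029.5 UMIs in crypt cells to 22949 to 28023.

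Each of the 83 members with at least 100 UMIs over all kept cells was lower in bottom than in crypt cells in 4 of 4 mice, and lower in middle enterocytes in 3 of 3. Of all genes with as many UMIs in the cells compared, 49.8% of 9410 were lower in bottom enterocytes in every mouse and 48.8% of 8525 in middle enterocytes, on the same scale. On counts scaled to the total UMIs of each mouse and cell type (CPM), the median log2 ratio to crypt cells was -1.28 in bottom and -2.75 in middle enterocytes, beside -0.45 and -0.35 over those genes. The size of the fall varied. It was largest in middle enterocytes for Rpl12, a large-subunit protein at the base of the stalk, with a log2 ratio of -4.31 (range -5.11 to -3.73 over 3 mice), followed by Rpl3 at -4.09 and Rpl14 at -3.81. It was smallest for Rps27l at -0.93 (range -1.06 to -0.86). Rps27, Rpl10 and Rps14 also fell less than most, by 1.66, 1.66 and 1.72 on the log2 scale.

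The 18 other translation genes with TOP starts or ribosomal fusions, among them the elongation factors Eef1a1 and Eef2, fell along the villus too, from 2.46% to 3.29% of UMIs in crypt cells to 1.06% to 1.21% in middle enterocytes of 3 mice. Mitochondrial ribosomal protein genes, which serve the separate ribosome of mitochondria, went from 0.980% to 1.24% down to 0.422% to 0.482%. Ribosome biogenesis genes, such as nucleolin (Ncl) and fibrillarin (Fbl), went from 0.360% to 0.421% down to 0.0163% to 0.0213%. Each of the 3 lists was lower in middle enterocytes than in crypt cells in 3 of 3 mice.

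**Figure D2:**
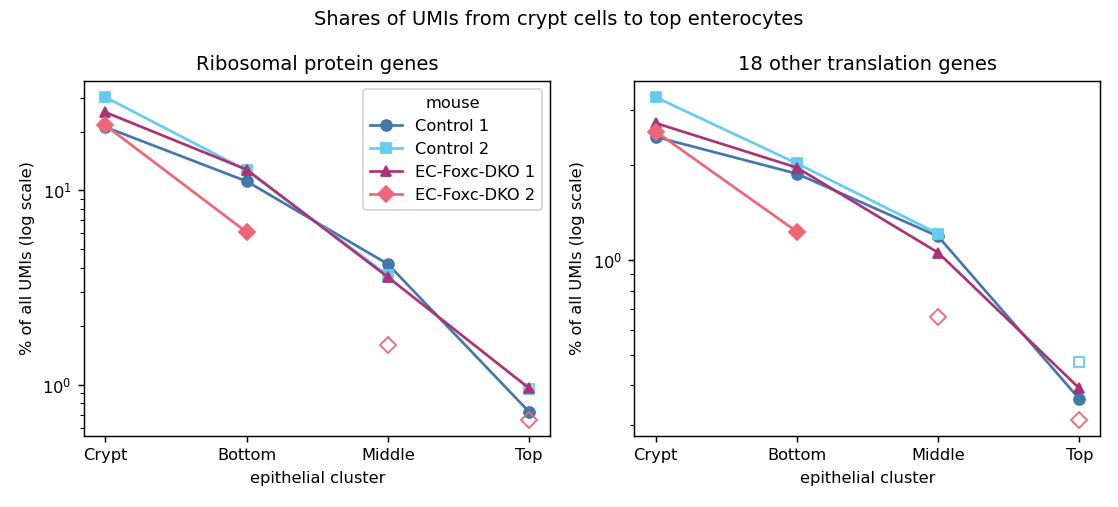
Share of UMIs (percent of all UMIs, log scale) on ribosomal protein genes (left) and on 18 other translation genes (right) from crypt cells to top enterocytes. Each colour is 1 mouse; open symbols stand for fewer than 10 cells. The ribosomal protein share falls from 21.1% to 30.1% in crypt cells to 0.724% and 0.958% in the top enterocytes of the 2 mice with filled symbols.

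Within the ribosomal protein UMIs most members kept near their mean proportion elsewhere, in the 16 cell types of the order, which leave out top enterocytes. In UMIs, which are counted once per transcript end and so do not depend on its length, the large subunit made up 49.7% of all member UMIs, the small subunit 42.4%, the stalk 4.72%, Rps27a 1.63% and the paralogs 1.49%. The 3 stalk genes, whose proteins recruit elongation factors, made up 35.2 to 52.1 per 1000 member UMIs in the mean of each of the 16 cell types, with the lowest value in follicular B cells. The 4 X-linked members Rpl10, Rpl36a, Rpl39 and Rps4x made up 35.4 to 45.1 per 1000. Rps27a, which yields ubiquitin together with a small-subunit protein, ranged from 13.04 per 1000 in middle enterocytes to 22.5 in macrophages.

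To find members that parted from the rest, each member's share of the member UMIs was set against its mean over the other cell types of the same mouse. A member was called apart where this distance averaged at least 1 on the log2 scale (2-fold), had the same sign in every mouse and rested on at least 20 UMIs, seen or expected. Of the members with at least 100 UMIs, 7 were apart in 17 pairs of gene and cell type, 1.28% of 1325 pairs with enough UMIs, and 76 were apart in none. This count depended on the mitochondrial limit. At 20% there were 65 pairs from 30 member genes, of which 31 lay in cell types of the order above, 11 of them in middle enterocytes. The others lay in top enterocytes (23), neutrophils (9) and germinal center B cells (2), which then had enough cells. At that limit, 14 of the 16 pairs that could be computed again stayed apart. For scale, on CPM the same rule marked 34.5% of 1326 such pairs of members and 42.4% of 130312 pairs over all genes. That second scale does not remove the level shared by the members. In each of the 16 cell types, 65 to 82 of the 83 members lay within 0.5 of their mean elsewhere on the log2 scale. Just inside the limit was Rps15a in CD8 T cells at 1.07. Just outside it were Rpl41 in follicular B cells (-0.94), Rpl12 in injury-state epithelial cells (-0.94), Rps27rt in crypt cells (-0.94) and in follicular B cells (0.92), and Rps2 in crypt cells (0.90). Rpl7l1 in plasma cells averaged -1.37 but differed in sign between mice. Another 6 pairs belonged to Rpl39l, Rpl3l and Rpl10l, paralogs known from testis or muscle, which had 28, 8 and 2 UMIs over all kept cells. Their distances came from the count of 0.5 added to each value, and nothing is read from them.

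**Figure D3:**
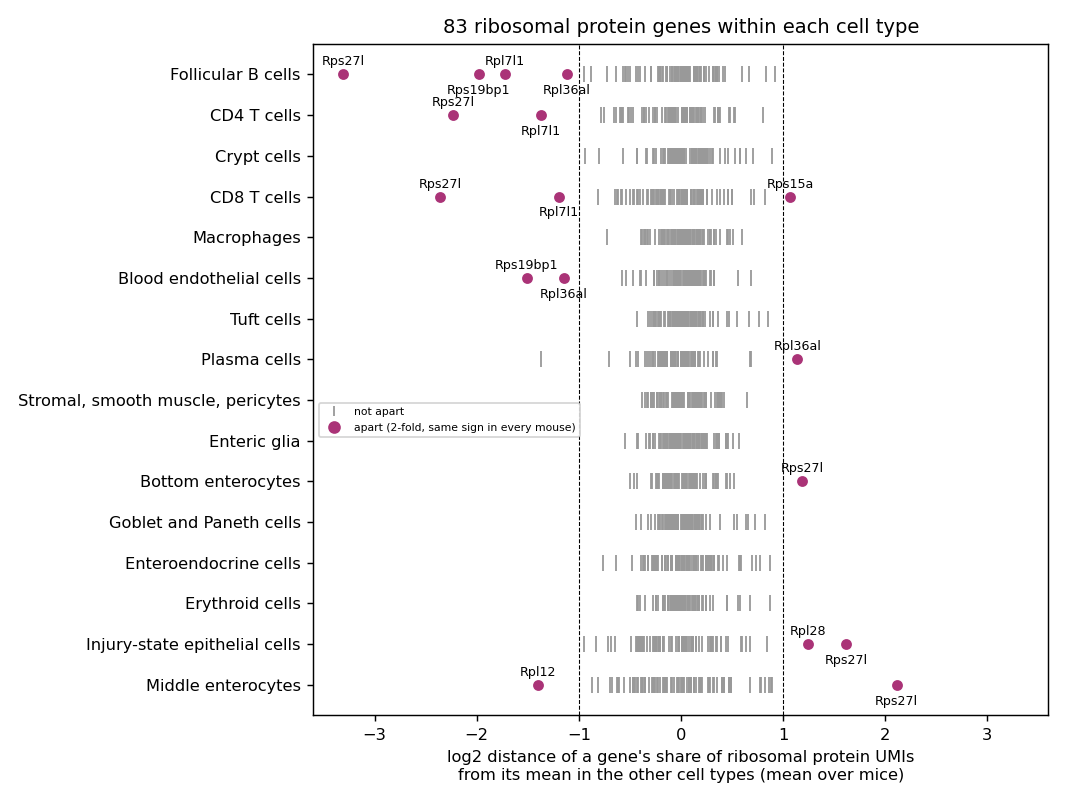
Log2 distance (horizontal axis, mean over mice) of each of 83 member genes' share of ribosomal protein UMIs from its mean in the other cell types, by cell type. Grey ticks are members not called apart, and named dots are the 17 pairs called apart. Rps27l spans from -3.31 in follicular B cells to 2.11 in middle enterocytes.

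Rps27l, a paralog of the small-subunit gene Rps27 that is known as a p53 target, parted most often, low in lymphocytes and high in enterocytes. In follicular B cells it had 0.316 and 0.0994 UMIs per 1000 member UMIs in the controls and 0.377 and 0.678 in those of EC-Foxc-DKO genotype, the value of control replicate 2 resting on 2 UMIs. In CD8 T cells it had 0.639, 0.445, 0.697 and 0.579. CD4 T cells had 0.609 in control replicate 2 and 0.379 and 0.879 in those of EC-Foxc-DKO genotype. These lymphocyte values overlap with each other and all lie below those of the other 13 cell types in the order, of which the lowest was 1.27 in blood endothelial cells. In middle enterocytes Rps27l had 9.97, 8.96 and 11.04 per 1000 in the 3 mice with 10 cells or more, and in injury-state epithelial cells 8.10, 8.64 and 8.54. The log2 distances were -3.31 in follicular B cells (range -4.34 to -2.32), -2.36 in CD8 T cells and -2.23 in CD4 T cells. They were 1.18 in bottom enterocytes (0.97, short of the limit, where up to 20% mitochondrial UMIs were allowed, and 1.92 and 1.78 without replicate 1 of the controls and of EC-Foxc-DKO), 1.62 in injury-state epithelial cells and 2.11 in middle enterocytes (range 1.77 to 2.39).

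Rps27 itself had 14.9 to 19.9 per 1000 in follicular B cells, 5.23 to 7.17 in crypt cells and 10.7 to 14.8 in middle enterocytes, so that, unlike Rps27l, it was not low in lymphocytes. On CPM, Rps27l went from a mean of 120 in follicular B cells to 773 in crypt cells and 379 in middle enterocytes. Its high share in middle enterocytes thus stood beside a lower level than in crypt cells. In the top enterocytes of the mice with 10 or more of these cells, Rps27l had 20.02 and 14.9 per 1000.

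Rpl36al, a paralog of the X-linked large-subunit gene Rpl36a, was low in blood endothelial cells and follicular B cells and high in plasma cells. It had 2.87, 2.45, 2.83 and 2.81 per 1000 in blood endothelial cells, and 2.84, 2.83, 2.62 and 2.89 in follicular B cells. In plasma cells it had 13.4 and 16.7 in the controls and 7.39 and 12.2 in those of EC-Foxc-DKO genotype, all 4 above each value in blood endothelial and follicular B cells. Rpl36a itself had 4.74 to 6.44 per 1000 in blood endothelial cells and 4.18 to 5.57 in plasma cells. Rpl36al therefore had less than Rpl36a in blood endothelial cells and more in plasma cells in 4 of 4 mice. The log2 distances of Rpl36al were -1.15, -1.12 and 1.14 in the 3 cell types. They sat close to the limit, at -0.99 in blood endothelial cells and -0.94 in follicular B cells without control replicate 1, at -0.92 in blood endothelial cells with a mitochondrial limit of 20%, and at -0.996 in follicular B cells without EC-Foxc-DKO replicate 1. In plasma cells the distance was 0.87 without control replicate 2.

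Rpl28, a large-subunit protein, was called apart in injury-state epithelial cells, with 38.7 per 1000 in control replicate 1 and 36.3 and 30.7 in those of EC-Foxc-DKO genotype, a log2 distance of 1.24. It had 16.1 to 17.9 in crypt cells, 20.1 to 22.0 in bottom enterocytes and 26.4 to 29.8 in middle enterocytes. In top enterocytes of the 2 mice with 10 or more it had 73.2 and 75.9, so that its part of the member UMIs was higher at each step up the villus. On CPM its mean fell, from 4168 in crypt cells to 1075 in middle enterocytes. Rpl12 took the other direction, with 10.7 to 12.4 per 1000 in crypt cells, 7.87 to 9.19 in bottom enterocytes and 4.48, 2.95 and 4.42 in middle enterocytes, where its log2 distance was -1.40.

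Rps15a, a small-subunit protein, was called apart in CD8 T cells. It had 26.6 and 25.6 per 1000 in the controls and 27.0 and 30.1 in those of EC-Foxc-DKO genotype, a log2 distance of 1.07 (range 0.97 to 1.17). All 4 lay above the values of CD4 T cells, which were 18.02 to 22.1 in 3 mice, and of follicular B cells, which were 16.3 to 19.4. None of the other 13 cell types in the order had more than 15.95 per 1000 in a mouse with 10 or more cells. Without control replicate 1 the distance in CD8 T cells was 0.95, just short of the limit.

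Rpl7l1, a paralog of Rpl7 that acts in ribosome assembly, was low in follicular B, CD4 T and CD8 T cells, with log2 distances of -1.73, -1.37 and -1.20. It was a minor member, with 271 UMIs in all follicular B cells, and it had no UMI in the 17 follicular B cells of control replicate 2. Rps19bp1 was low in follicular B cells and blood endothelial cells, with log2 distances of -1.98 and -1.51, the latter on 10 UMIs. Rps19bp1 too had no UMI in the follicular B cells of control replicate 2, and its distance in blood endothelial cells was -0.61 without the highest doublet scores and was no longer called apart. Rpl7l1 in CD8 T cells was at -0.78 without control replicate 1. Rpl22l1, a paralog of the large-subunit gene Rpl22, was apart nowhere. It had 4.22 to 6.10 per 1000 in crypt cells and 1.59 to 3.37 in macrophages. Together, Rpl22l1, Rpl36al, Rps27l and Rpl7l1 made up 5.72 per 1000 in follicular B cells, 7.69 in blood endothelial cells and 23.0 in middle enterocytes (means over 3 or 4 mice).

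**Figure D4:**
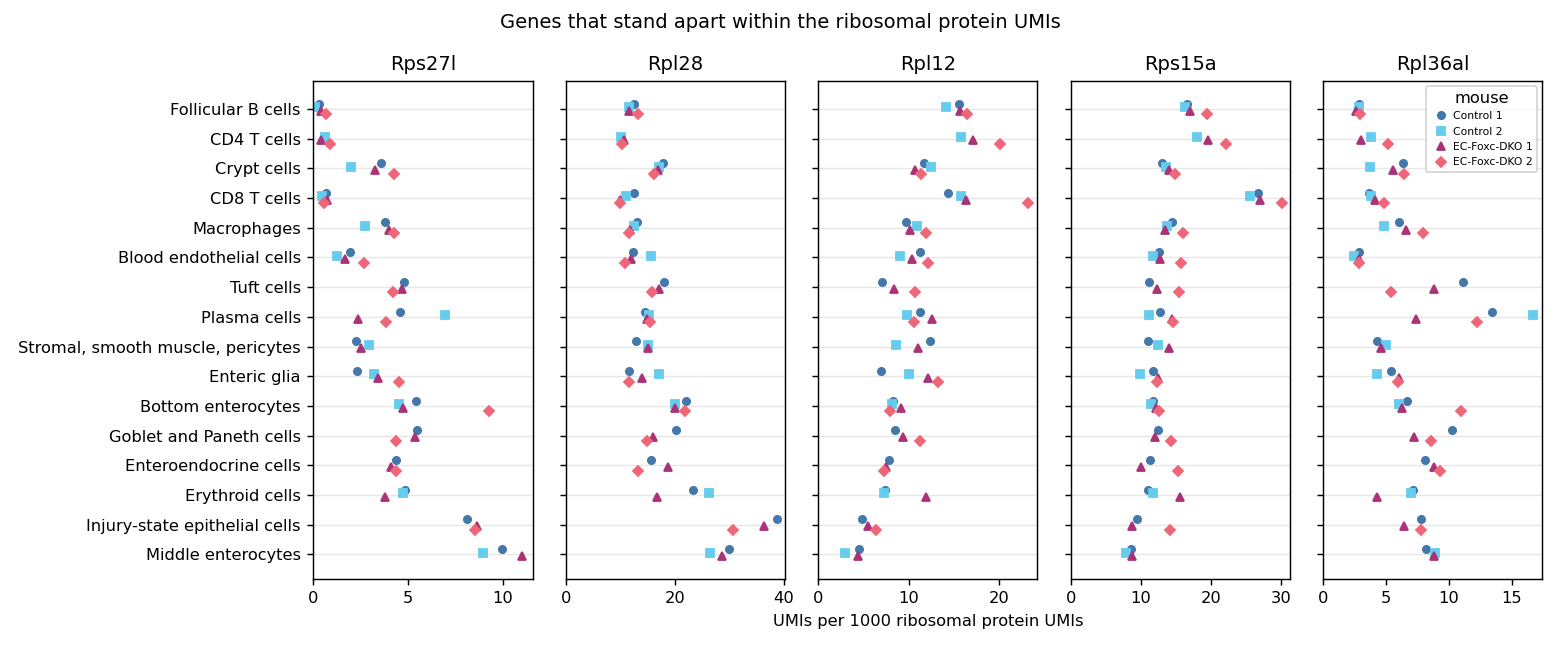
UMIs per 1000 ribosomal protein UMIs (horizontal axes) for 5 genes that were called apart, by cell type, with each symbol 1 mouse. Among the 16 cell types plotted, which leave out top enterocytes, Rpl28 is highest in injury-state epithelial cells and middle enterocytes. Rps15a is highest in CD8 T cells at 25.6 to 30.1, and Rpl36al has its highest mean log2 distance in plasma cells (1.14). Rps27l has its highest mean log2 distance in middle enterocytes (2.11), then in injury-state epithelial cells (1.62) and bottom enterocytes (1.18). Its lowest is -3.31, in follicular B cells.

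The next comparison asked whether ribosomal protein genes differed with genotype, in the endothelial cells targeted by the deletion and in the other cell types. The 8 cell types with at least 10 cells in every mouse were used. The share was higher in both EC-Foxc-DKO mice than in both controls in 4 of the 8, lower in both in none, and overlapping in 4. An exact permutation test of 2 against 2 mice cannot go below p = 0.333, so none was made. Groups of this size part without overlap in 0.333 of all arrangements of the mice. The 8 cell types also share the same 4 mice, so nothing is read from the count itself.

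Follicular B cells had 28.7% and 31.7% in the controls and 33.4% and 35.3% in those of EC-Foxc-DKO genotype, a difference of 4.13 percentage points beside a pooled SD of 1.79. CD8 T cells had 20.4% in both controls and 21.2% and 21.1% in those of EC-Foxc-DKO genotype. The difference was 0.740 beside a pooled SD of 0.018. From counting error alone, the Wilson intervals of these shares were 0.275, 0.266, 0.159 and 0.323 percentage points wide, in the same order. The pooled SD in CD8 T cells is far below these widths and cannot be read as the spread between mice. Blood endothelial cells, the only 1 of the 8 cell types targeted by the deletion, had 14.1% and 14.7% against 14.8% and 15.1%, a difference of 0.597 beside a pooled SD of 0.37. The difference in blood endothelial cells was 0.197 with a mitochondrial limit of 20%, 0.323 with the 20 most abundant other genes left out of the total, where the groups overlapped (16.8% and 17.4% against 17.5% and 17.3%), 1.39 without the highest doublet scores, and 0.254 and 0.939 without control replicate 1 and 2. That in CD8 T cells was 0.377 with the limit of 20%. Gm42418, a gene that overlaps ribosomal RNA sequence, also varied in CD8 T cells. It took 4.07% and 2.24% of their UMIs in the controls against 2.14% and 0.45% in those of EC-Foxc-DKO genotype. The share was not computed without this gene alone, and its part in the difference was not tested. Plasma cells had 7.60% and 8.10% against 17.7% and 14.9%, a difference of 8.43. These values rest on only 11 and 11 plasma cells in the controls, and on 67 and 15 in those of EC-Foxc-DKO genotype. With the 20 most abundant other genes left out of the total they had 26.8% and 22.9% against 33.8% and 30.0%. The share of the median cell did not overlap in follicular B cells (28.1% and 30.1% against 34.3% and 34.0%). It overlapped in blood endothelial cells (11.1% and 12.4% against 11.9% and 13.8%), CD8 T cells (18.6% and 20.8% against 20.5% and 20.3%) and plasma cells (34.8% and 9.02% against 43.2% and 17.0%).

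Crypt cells (21.1% and 30.1% against 25.2% and 21.6%), macrophages (16.3% and 14.5% against 18.1% and 14.4%) and enteric glia (13.2% and 9.35% against 10.3% and 9.85%) overlapped. In bottom enterocytes, EC-Foxc-DKO replicate 2 stood apart at 6.09%, beside 11.1% to 12.8% in the other 3 mice. In that library the abundant enterocyte genes took 17.4% of the UMIs of bottom enterocytes against 8.27% to 9.47% in the others. Its median cell held 3.82% against 10.7% to 12.2%. The part of these values in the low share was not tested. Other values differed by library. The UMIs on Gm42418 were 0.59% in blood endothelial cells of that mouse and 3.08% to 7.60% in those of the other 3. Their part in the differences was not tested.

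No member was called between the genotypes in any of the 8 cell types by edgeR's quasi-likelihood test with Benjamini-Hochberg adjustment over all genes tested at 0.05. The background was likewise 0% of all genes in each cell type, so that the count says nothing particular to ribosomal protein genes. DESeq2 called no member either. At an unadjusted p under 0.05 there were 5 of 82 members in follicular B cells, 4 of 81 in plasma cells, 1 of 83 in CD8 T cells and 0 in the other 5. Over all genes tested the same count was 68 of 3413 (1.99%), 64 of 1129 (5.67%) and 105 of 4809 (2.18%), beside 6.10%, 4.94% and 1.20% of the members. The percentage of members was thus above that of all genes in follicular B cells, near it in plasma cells and below it in CD8 T cells, with no test of these differences. It was 2.19% to 3.07% of all genes in the other 5. The median standard error of a member's log2 fold change was 0.16 in CD8 T cells, 0.23 in blood endothelial cells and up to 0.38 in enteric glia. Small differences were therefore not detectable with 2 mice in each group.

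In follicular B cells the members leaned higher in the EC-Foxc-DKO mice without passing the test. Their median log2 fold change was 0.27 against -0.01 over all 3413 genes, with 78 of 82 above 0. The members share a level within a mouse, so these are not 82 separate observations. The values rest on 123 and 17 follicular B cells in the controls and on 1204 and 34 in those of EC-Foxc-DKO genotype. The 3 lowest p-values belonged to Rps27l, Rps12 and Rplp1. Rps12, a small-subunit protein, had 3800 and 4001 CPM in the controls and 5238 and 7047 in those of EC-Foxc-DKO genotype. Its log2 fold change was 0.71 ± 0.25 (SE), with an edgeR adjusted p of 0.9996. The stalk gene Rplp1 had 3745 and 3686 against 4918 and 6251, with a log2 fold change of 0.64 ± 0.25 (SE). Rps27l had 38 and 2 UMIs against 593 and 23, or 90.6 and 31.5 against 133 and 226 CPM, a log2 fold change of 1.18 ± 0.41 (SE). All 3 stalk genes had positive values here, Rplp0 0.61 and Rplp2 0.46.

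In plasma cells, 79 of 81 members lay above 0, with a median log2 fold change of 0.51 against 0.04 over 1129 genes. These 81 are likewise not separate observations. Rpl30, a large-subunit protein, had 616 and 699 CPM in the controls against 2187 and 1559 in the other group. After TMM scaling its log2 fold change was 0.96 ± 0.35 (SE) with an edgeR adjusted p of 0.760. Rpl24 and Rpl36a had log2 fold changes of 0.77 and 0.86 and did not pass either. With scaling to total UMIs alone the median of the members in plasma cells was 1.17 and that of all genes 0.65, and again no member passed.

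In the blood endothelial cells the members centred on no change, with a median of 0.05 and a range of -0.27 to 0.49. Rplp1 had the lowest p, with 3408 and 2693 CPM in the controls and 3362 and 4647 in those of EC-Foxc-DKO genotype, which overlap. Rps19, a small-subunit protein, had 1862 and 2198 against 2702 and 2489, and Rpl39 had 1378 and 1311 against 1456 and 2039. Their log2 fold changes were 0.37, 0.34 and 0.35, and none passed the test. CD8 T cells had a median of 0.06, and there Rpl12 had 2918 and 3220 CPM in the controls and 3448 and 4906 in those of EC-Foxc-DKO genotype, a log2 fold change of 0.46 ± 0.19 (SE) that did not pass. Rpl36al and Rps13 followed with 0.32 and 0.22.

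Macrophages had a median of 0.05, with Rpl22l1, Rpl36al and Rps27l at the lowest p-values and log2 fold changes of 0.50, 0.43 and 0.37. In crypt cells the median was -0.12, but Rps27l (0.36) and Rps19bp1 (0.27) had positive values. Rps26 was at -0.34, and at 0.084 without control replicate 2. Enteric glia had a median of -0.19, with Rps20, Rpl11 and Rpl35a at -0.68, -0.58 and -0.54. None of these genes passed the test.

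In bottom enterocytes the median of the members was -0.33, with a range of -0.52 to 0.10. The negative median rested on the low library. Without EC-Foxc-DKO replicate 1, which leaves EC-Foxc-DKO replicate 2 alone against 2 controls, edgeR called 74 of 83 members lower at an adjusted p under 0.05, against 5.61% of all 10229 genes called lower, and the median of the members was -0.89. Without EC-Foxc-DKO replicate 2 it called none and the median was 0.06. The lone sample is assumed in that fit to vary like the controls. Rpl13a and Rps2, 2 of the 3 members with the lowest p in the full set, had 673 and 532 CPM in the low library and 1163 to 1351 in the other mice, and Rps27rt had 27.2 against 45.2 to 53.6.

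Of the fixed lists of other genes, none had a member called in any of the 8 cell types. The other translation genes leaned the same way as the ribosomal protein genes in bottom enterocytes (median -0.32), follicular B cells (0.26) and plasma cells (0.48). Ribosome biogenesis genes in macrophages had a median of 0.44, with 27 of 27 above 0 against 50.8% of all genes, and none was called there. These 27 values come from the same mice and are not separate observations, so nothing is read from their count.

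**Figure D5:**
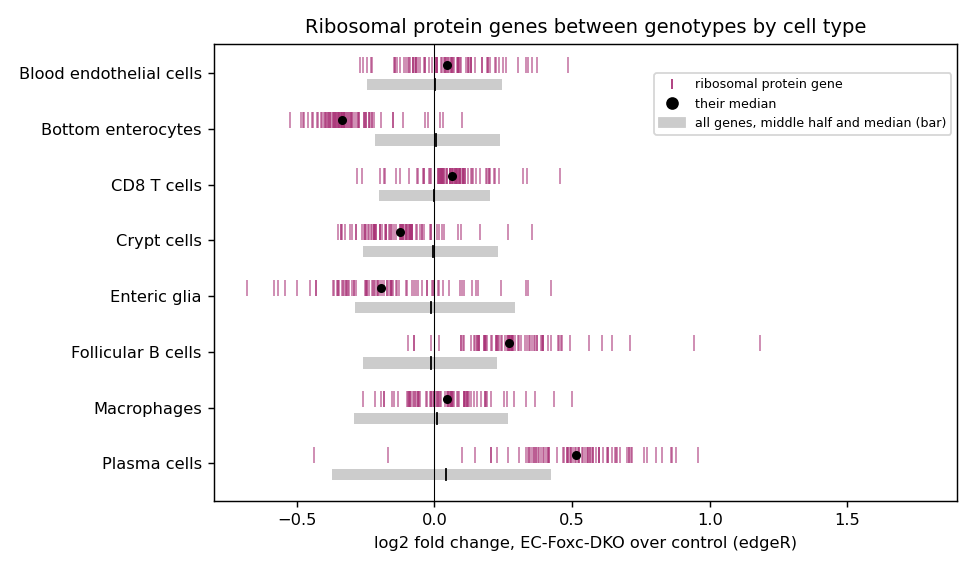
Log2 fold change of EC-Foxc-DKO over control (horizontal axis, edgeR) of each ribosomal protein gene (ticks, with the median as a dot) in 8 cell types, and the interquartile range and median of all genes (grey bars). The members' medians run from -0.33 in bottom enterocytes to 0.51 in plasma cells, and no gene passed an adjusted p of 0.05.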

How the data were processed

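The values deposited by the authors are raw UMI counts, 1 matrix per mouse, made with Cell Ranger on mm10 (version 4.0.0 per the file headers and the submitters' processing notes; the methods name an earlier one). The members and gene lists were chosen with earlier results of these data known. Cells over 10% mitochondrial UMIs were removed. Variable genes without the members, 15 principal components, 15 neighbours and Leiden clustering at a resolution of 0.5 gave 22 clusters. Each was named from at least 3 markers, except the 1 that stayed unnamed. Doublets were kept; the cells with the highest Scrublet scores (0.8% per 1000 barcodes) were removed as an alternative. UMIs were summed per mouse and cell type, since cells are not replicates. Genotypes were tested with edgeR (filterByExpr, TMM scaling, quasi-likelihood test, Benjamini-Hochberg adjustment over all genes tested), with DESeq2 as an alternative. The standard error is the absolute log2 fold change divided by the square root of the quasi-likelihood F. Same-numbered mice did not deviate together (correlations of -0.33 to 0.01), so that the numbers were not read as pairs. Scripts were tested on simulated data. The text names, for each cell type, the 3 members with the lowest p where none passed, up to 12 members that were apart, and the paralogs; others it names were chosen after their values were seen. Reads shared with pseudogenes could be lost or split in the counting, and 5 features named as such copies held 0.0622% as many UMIs as the members.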

Additional observations from a re-analysis of the deposited data

Results flagged for a closer look

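The barcodes removed for a high mitochondrial share stand outside every comparison above. In EC-Foxc-DKO replicate 2 the ribosomal protein genes held 7.55% of their UMIs, above the level in both controls (3.06% and 4.30%), while EC-Foxc-DKO replicate 1 was at 3.67%. With mitochondrial UMIs left out of the total, the shares were 10.6% in EC-Foxc-DKO replicate 2, 4.06% and 8.55% in the controls and 5.02% in EC-Foxc-DKO replicate 1. No group had enough mice for a test of outlying samples.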

How the results depend on the processing

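With the 20 most abundant other genes left out of the total, the mean share was 39.0% in follicular B cells, 37.2% in CD4 T cells, 26.0% in CD8 T cells, 18.8% in macrophages, 17.2% in blood endothelial cells, 28.4% in plasma cells, 13.01% in enteric glia, 13.8% in bottom enterocytes, 9.84% in enteroendocrine cells, 9.61% in erythroid cells, 6.202% in injury-state epithelial cells and 5.32% in middle enterocytes. Without mitochondrial genes in the total it was 22.0% in CD8 T cells, 15.5% in blood endothelial cells and 4.13% in middle enterocytes. With a mitochondrial limit of 20% it was 19.6%, 13.4% and 1.62% in these 3, 2.61% in erythroid cells and 3.98% in injury-state epithelial cells. Without the highest doublet scores it was 13.9% in blood endothelial cells. The difference between the genotypes, in percentage points, was 0.197 (limit of 20%) and 1.39 (doublets) in blood endothelial cells. In CD8 T cells it was 1.02 (mitochondrial genes out), 0.820 (top genes out), 0.377 (limit of 20%) and 0.784 (doublets). The cause of these moves was not tested, apart from the smaller total where genes were left out. Pairs called apart numbered 23, with 128 at a log2 limit of 0.5, 14 at 1.5, 71 with a mitochondrial limit of 20%, 15 to 18 when 1 mouse was left out, and 17 without the members under 100 UMIs, a choice made after seeing the data. Leaving out 1 mouse moved the number of members called lower in bottom enterocytes from 0 to 74. The log2 fold change of Rps26 in crypt cells ranged from -0.630 to 0.084 when 1 mouse was left out, with the change of direction without control replicate 2. With the replicate number as a replicate block, 0 members were called in each of the 8 cell types. With the pairing crossed, chosen after seeing the data, 0 members and 0 to 15 of all genes were called in each cell type. With 2 mice per group, only differences well above the standard errors could be called.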
